A study of Mus musculus with 24 samples.

Results

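Dnmt1, Uhrf1, Dnmt3a, Dnmt3b, Mbd1, Mbd2 and Mbd3 are genes whose products write, maintain or read DNA methylation, or belong to a family of its readers. They were chosen by gene symbol alone, with every probe that the deposited annotation assigns to one of the 7 genes. There were 14 such probes of 25697 on the array, for 7 of 17870 genes. Their levels were measured in mouse CD4+ T cells of 2 genotypes, WT and BAF180-deficient, each in 4 states with 3 arrays per group, labelled A, B and C, so that there were 24 arrays. BAF180, encoded by Pbrm1, is a subunit of a SWI/SNF chromatin remodeling complex, and in the BAF180-deficient mice a floxed part of the gene was deleted by a Cre driven by CD4 regulatory elements, relatively late in thymocyte development. In all 4 states the cells came from mice aged 4 to 6 weeks and from purified Naïve cells with a stated purity of 95%. Naïve cells that were not stimulated are called resting. Stimulated Naïve cells had received 1 µg/ml of anti-CD3 with 2 µg/ml of anti-CD28 for 24 h. Resting Th2 cells had also been started on the same doses of anti-CD3 with anti-CD28, together with 10 ng/ml of IL-4 and 10 µg/ml of anti-IFN-gamma, and then grew with 100 U/ml of IL-2. Th2 cells were exposed to 50 ng/ml of PMA plus 500 ng/ml of ionomycin for 1.5 h, which gave the stimulated Th2 group. The labels name Balb/c as the strain and the methods of the study a mixed background, and whether the WT mice carried the Cre is not given in the sources used here.

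Mammalian DNA is methylated mainly at the cytosine of CpG dinucleotides. Dnmt3a and Dnmt3b place new methyl groups. Dnmt1 copies the pattern onto the daughter strand after replication, and Uhrf1 binds the half-methylated DNA and brings Dnmt1 to it. Mbd1, Mbd2 and Mbd3 belong to the methyl-CpG-binding domain family, some of whose members link methylated DNA to repression. Mbd2 and Mbd3 are alternative subunits of the NuRD complex, which joins histone deacetylases to a remodeling ATPase. In T helper cells, DNA methylation is known for helping to keep the cytokine genes of the other lineages silent.

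Of the 14 probes, 5 were detected on every array at a detection p of at most 0.02, which compares a probe with the negative controls of its array. They stand for Dnmt1, Uhrf1, Dnmt3b, Mbd1 and Mbd3, and each gene is described by that probe. Dnmt3a was not detected on any array by either of its probes, whose lowest detection p was 0.174, and neither was Mbd2, whose single probe had a lowest detection p of 0.0276. The signals of these probes were at most 45.7 for Dnmt3a and 45.5 for Mbd2, where the dimmest detected probe of an array had a signal of 44.6 to 55.6, so for both genes there is only an upper bound. Of the other Mbd1 probes, 1 was detected on 16 arrays, 1 on 1 array and 2 on none. Uhrf1 and Dnmt3b each had a second probe that was detected on 0 arrays. A level of one probe cannot be set against that of another, since probes differ in brightness.

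The probes of Uhrf1 and Dnmt3b are shown because the 2 probes of a gene gave such different signals. Each is 50 bases long, and its first 30 bases are printed as in the deposited annotation, in lower case since no part is marked. The detected probe of Dnmt1 is given for comparison.
Dnmt1, detected on 24 arrays: ctgccactgtgcaggtggcaagtgagactt
Uhrf1, detected on 24 arrays: ccatttactacaggcagactggacagcaca
Uhrf1, detected on 0 arrays: ctcggaggatgacatcatgtaccatgtcaa
Dnmt3b, detected on 24 arrays: ctcgcaaggtgtgggcttttgtaacttcac
Dnmt3b, detected on 0 arrays: caaatgaggggcccagtccccaacagctca
The annotation places the starts of the Uhrf1 probes at bases 10 and 19, but at that offset only 13 of 41 overlapping bases were equal, so these positions do not describe 1 transcript sequence. All values of Uhrf1 below come from the detected probe.

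Levels are given as normalized log2 intensities, so that a difference of 1 is 2-fold, and each difference was tested with limma over 14246 probes with Benjamini-Hochberg adjustment. Pbrm1 was lower in the BAF180-deficient arrays in each state, by differences of -1.01 in resting Naïve, -1.63 in stimulated Naïve, -1.86 in resting Th2 and -1.42 for stimulated Th2, and no array of one genotype overlapped with the other. Cd3e, Cd3g, Cd4, Cd28 and Lck were detected on every array, and the summed corrected intensity of 6 Th2 markers was 323 to 572 in WT resting Naïve and 20620 to 22370 in WT stimulated Th2 cells. This sum did not separate WT resting Th2 cells (1272 to 2228) from WT stimulated Naïve cells (1125 to 1997). Il2ra, the high-affinity IL-2 receptor chain, rose by 3.04 from resting to stimulated Naïve WT cells, whereas Cd69, an early activation marker, fell by 1.43. All 6 measured myeloid markers were lower in stimulated than in resting Naïve WT cells, and their summed intensity was 2429 to 5540 over the 6 resting Naïve arrays and 451 to 1204 over the other 18. The part of such cells in the differences between states was not tested. In a bulk sample, fewer cells of a type and less RNA per cell cannot be told apart.

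Dnmt1 and Uhrf1, the maintenance methyltransferase and its partner, were both lowest in resting Naïve cells, highest in stimulated Naïve and resting Th2 cells, and intermediate in stimulated Th2 cells. On the WT arrays A, B and C, Dnmt1 had log2 levels of 7.27, 6.72 and 7.15 in resting Naïve and 8.20, 9.19 and 8.85 in stimulated Naïve cells. The 3 stimulated arrays lay above the 3 resting arrays, with replicate A the lowest of the stimulated ones. In WT resting Th2 cells the Dnmt1 levels were 8.80, 8.67 and 9.17, and after PMA and ionomycin they were 7.83, 7.59 and 8.26. These groups did not overlap either, and the stimulated Th2 arrays were all above the resting Naïve ones.

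Dnmt1 rose 3.25-fold from resting to stimulated Naïve WT cells (log2 difference 1.70 ± 0.28 SE, limma adjusted p = 4.65e-05). It was 3.56-fold higher in resting Th2 than in resting Naïve WT cells (1.83 ± 0.28, limma adjusted p = 3.37e-05). In stimulated Th2 cells it fell by 0.99 on the log2 scale against resting Th2 cells (SE 0.28, limma adjusted p = 0.011), within 1.5 h. Stimulated Th2 cells were still above resting Naïve cells (0.85, limma adjusted p = 0.0164) and below stimulated Naïve cells (-0.85, limma adjusted p = 0.0347). Resting Th2 and stimulated Naïve cells, neighbours in this order, differed by 0.13, with a 95% confidence interval from -0.45 to 0.72. The call for stimulated Th2 against stimulated Naïve cells was lost with all 25697 probes tested (limma adjusted p = 0.0775) and with only the 6 arrays compared (0.0791).

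Uhrf1 changed in the same order and by more. Its log2 levels on the WT arrays A, B and C were 7.89, 7.23 and 8.39 in resting Naïve cells and 9.95, 11.21 and 10.90 in stimulated Naïve cells. Resting Th2 cells had 10.45, 10.56 and 11.22, and stimulated Th2 cells 9.49, 9.19 and 9.99. The WT arrays of the 4 states kept apart except for stimulated Naïve cells, which overlapped with resting Th2 cells and, with replicate A, with stimulated Th2 cells. Uhrf1 rose 7.21-fold from resting to stimulated Naïve WT cells (log2 difference 2.85 ± 0.33 SE, limma adjusted p = 5.98e-07) and was 7.50-fold higher in resting Th2 than in resting Naïve cells (2.91 ± 0.33, limma adjusted p = 8.17e-07). It fell by 1.19 from resting to stimulated Th2 cells (SE 0.33, limma adjusted p = 0.00943), which left it 1.72 above resting Naïve cells (limma adjusted p = 0.00019) and 1.13 below stimulated Naïve cells (difference -1.13, limma adjusted p = 0.0174). Resting Th2 and stimulated Naïve cells differed by 0.06, with a 95% confidence interval from -0.63 to 0.74.

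BAF180-deficient cells went through the same sequence. Their Dnmt1 levels were 7.58, 7.05 and 6.98 in resting Naïve, 7.98, 8.88 and 8.90 in stimulated Naïve, 8.30, 8.78 and 9.14 in resting Th2 and 8.04, 7.89 and 8.10 in stimulated Th2 cells. Their Uhrf1 levels were 8.43, 8.26 and 7.98, then 10.25, 11.12 and 10.75, then 10.11, 10.29 and 10.96, then 9.75, 9.81 and 9.91 in the same order of states. In each state these ranges overlapped with those of WT. Taken by letter, the BAF180-deficient array was lower for Uhrf1 in 3 of 3 pairs of resting Th2 cells (-0.34 to -0.26), a difference that did not pass the test (-0.29, limma adjusted p = 0.9999), and in the other states the pairs had both signs. Dnmt1 rose by 1.38 on stimulation of Naïve cells (limma adjusted p = 0.000409) and Uhrf1 by 2.49 (limma adjusted p = 3.68e-06), and in resting Th2 against resting Naïve cells the differences were 1.54 and 2.23 (limma adjusted p = 0.000235 and 2.4e-05). In stimulated against resting Th2 cells the differences were -0.73 for Dnmt1 (limma adjusted p = 0.06) and -0.63 for Uhrf1 (limma adjusted p = 0.183). With the replicate letter as a block, the Dnmt1 difference passed (limma adjusted p = 0.0441).

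**Figure D1:**
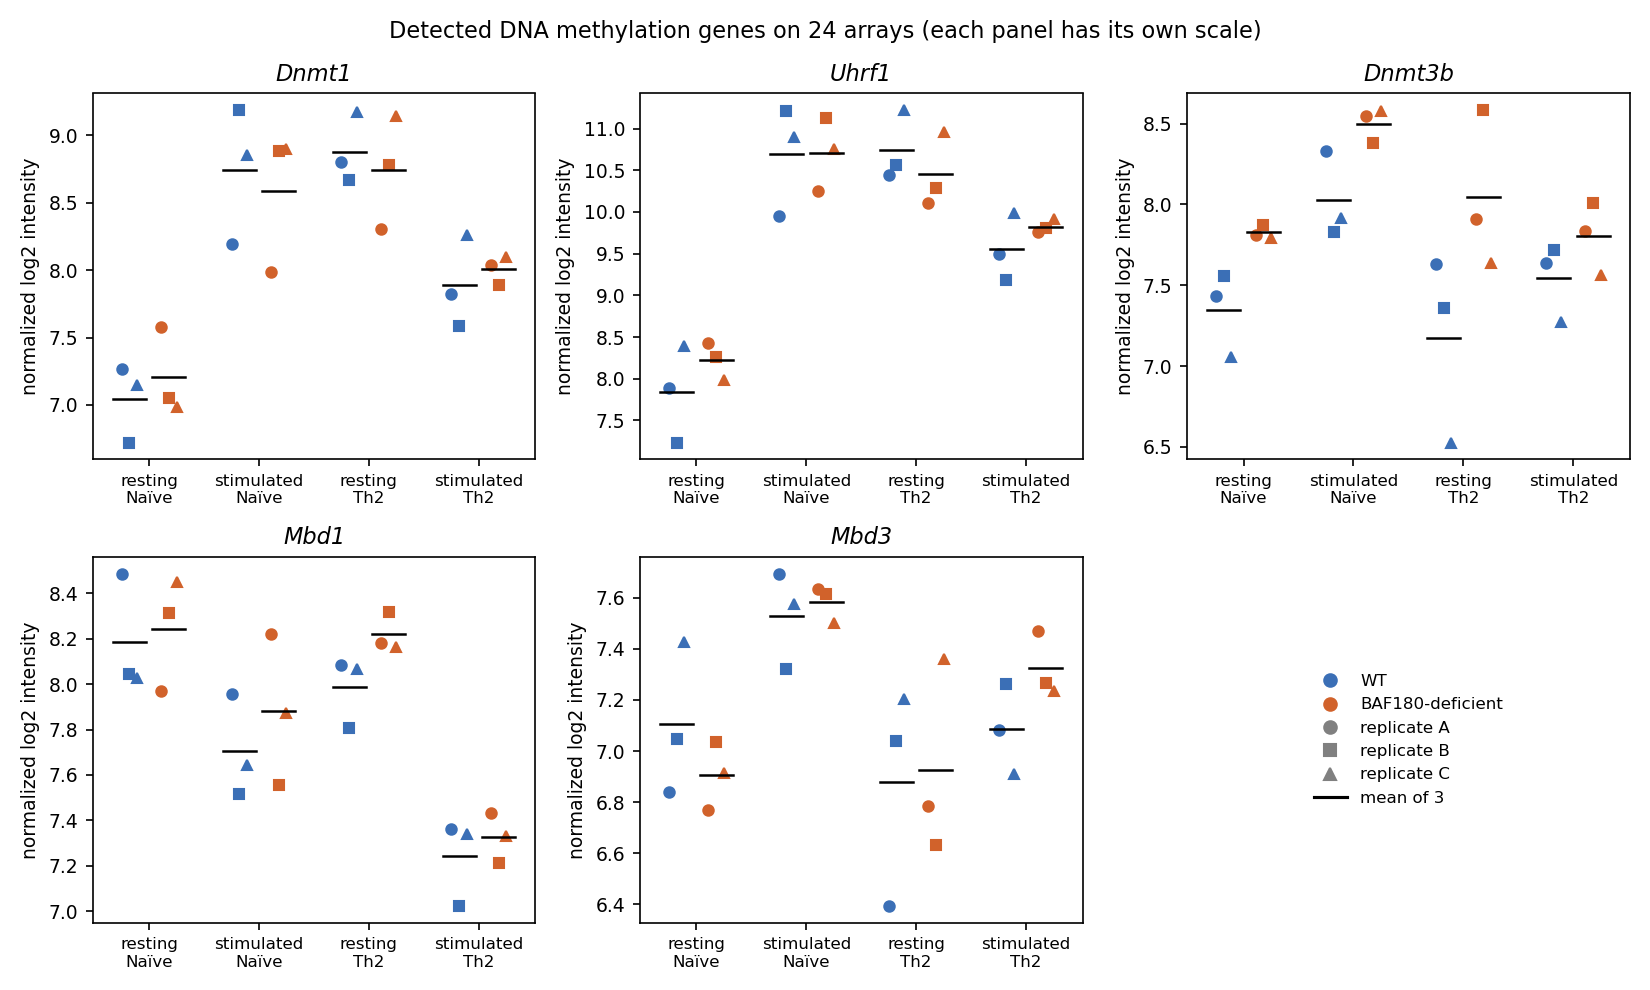
Normalized log2 intensity (y axis) of the detected probe of each gene on 24 arrays, by cell state (x axis) and genotype, with the replicate letter as the symbol and a line at the mean of 3 arrays; each panel has its own scale. Dnmt1 and Uhrf1 sat lowest in resting Naïve cells of both genotypes, Mbd1 sat lowest in stimulated Th2 cells, and the mean of Dnmt3b was higher in BAF180-deficient than in WT cells in every state.

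The losses in stimulated Th2 cells rested on few arrays. Without WT resting Th2 replicate C, the difference between stimulated and resting Th2 WT cells was -0.84 for Dnmt1 (limma adjusted p = 0.0573) and -0.95 for Uhrf1 (limma adjusted p = 0.0613). Without WT stimulated Th2 replicate B it was -0.83 for Dnmt1 (limma adjusted p = 0.0607) and -1.01 for Uhrf1 (limma adjusted p = 0.0544). The direction was the same, and no other single array ended either of these calls. The comparison of stimulated Th2 with stimulated Naïve WT cells lost its call more often. For Uhrf1 it did so without stimulated Naïve replicate B or C or stimulated Th2 replicate A or B (limma adjusted p 0.0552 to 0.102), and for Dnmt1 without the same 4 arrays (0.0963 to 0.173). With only the 6 arrays compared, Uhrf1 missed the threshold too (limma adjusted p = 0.0632). The difference of Dnmt1 between stimulated Th2 and resting Naïve WT cells also lost its call without resting Naïve replicate B (limma adjusted p = 0.0805) or stimulated Th2 replicate C (limma adjusted p = 0.0913).

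**Figure D2:**
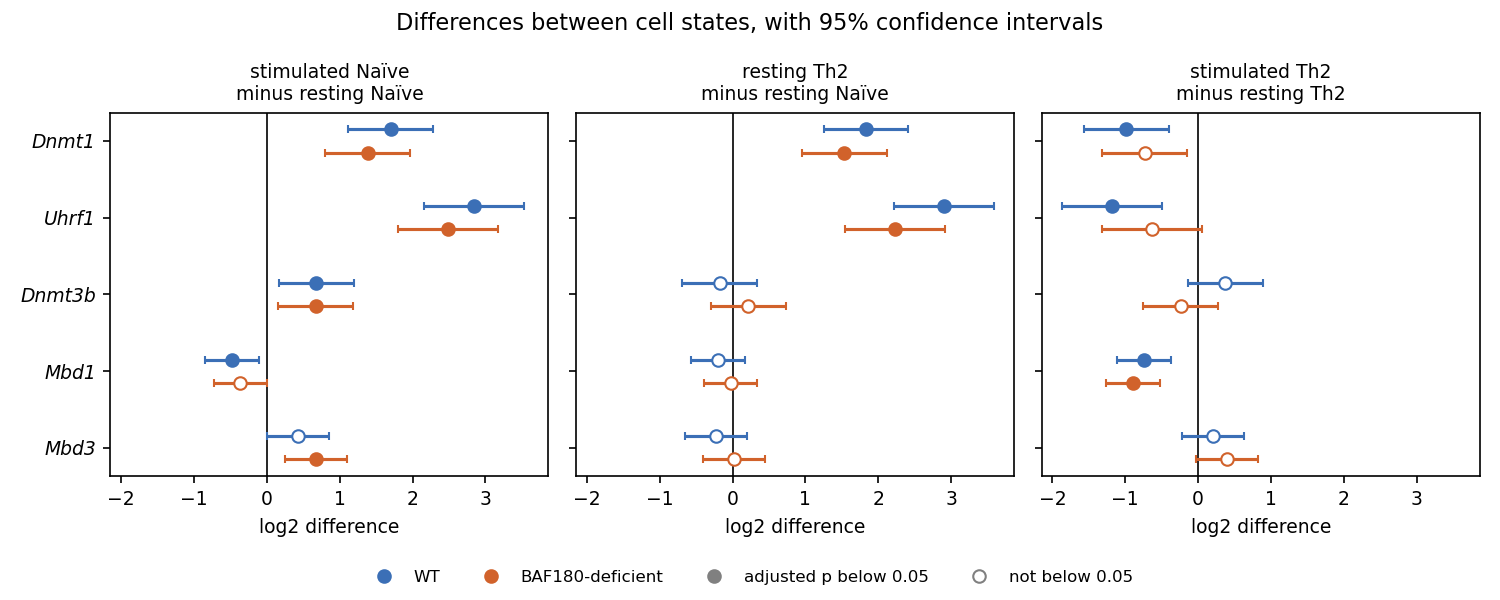
Log2 differences between cell states (x axis, in log2 units) for the 5 detected genes, in WT and BAF180-deficient cells, with 95% confidence intervals from limma; filled points have an adjusted p below 0.05. In the panels of stimulated Naïve and resting Th2 cells against resting Naïve cells, the Dnmt1 and Uhrf1 points were all above 1 with intervals clear of 0, while after PMA and ionomycin the points of Dnmt1, Uhrf1 and Mbd1 lay below 0 in both genotypes.

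Over the members, 4 of the 5 detected genes were called (adjusted p below 0.05) between stimulated and resting Naïve cells in WT, where 43.6% of all probes were, and 4 in BAF180-deficient cells, where 41.6% were. Dnmt1 and Uhrf1 were the 2 genes called between resting Th2 and resting Naïve cells in either genotype, by the probe that stands for each gene. Of all probes, 34.4% were called there in WT and 34.7% in BAF180-deficient cells. In stimulated against resting Th2 cells 3 genes were called in WT (Dnmt1, Uhrf1 and Mbd1), beside 27.3% of probes, and 1 in BAF180-deficient cells (Mbd1), beside 25.8%. The other comparisons within WT called 22.3% of probes between resting Th2 and stimulated Naïve cells, 20.1% between stimulated Th2 and stimulated Naïve cells, and 48.5% between stimulated Th2 and resting Naïve cells. A call between states was therefore common on these arrays, and among the 5 genes Dnmt1 and Uhrf1 had the largest differences from resting Naïve cells in stimulated Naïve and in resting Th2 cells of both genotypes. The shares include probes detected on only 1 array, whereas the 5 genes were read by probes detected on all 24 arrays. Shares among equally bright probes were not computed. The gene lists below, read by the brightest probe of each gene, have the same limit.

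Dnmt1 and Uhrf1 also followed each other from array to array. Over the 24 arrays their correlation was 0.965, and Uhrf1 was the gene most like Dnmt1 among 7205 genes detected on at least 12 arrays. Shcbp1 was also among the genes most like Dnmt1 (r = 0.940). The genes most like Uhrf1 were Mcm5 (0.968), Dnmt1 and Mcm6 (0.957), where Mcm5 and Mcm6 are subunits of the replicative helicase. The arrays fall into 8 groups, so these values describe mostly the differences between groups, but the deviations of Dnmt1 and Uhrf1 from their group means also had a correlation of 0.880. With the 17 measured genes of a DNA replication list, the median correlation was 0.832 for Dnmt1 and 0.900 for Uhrf1, against 0.113 and 0.132 with all probes that were detected on at least 12 arrays.

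The replication genes themselves moved in the same order. Between stimulated and resting Naïve WT cells, 16 of the 17 rose and none fell, with a median difference of 2.26, where 23.6% of all probes rose and the median of all probes was 0.01. The largest differences were those of Cdc45 (3.29) and Cdc6 (3.06), which act in activating and loading the helicase, and of Tyms (2.66) and Rrm2 (2.60), which supply nucleotides. Between resting Th2 and resting Naïve WT cells 15 rose (median 1.95, where 18.4% of probes rose), and after PMA and ionomycin 7 fell and none rose (median -0.72, where 14.3% of probes fell), among them Tyms (-1.62), Lig1 (-1.26) and Mcm4 (-1.08). The mean log2 level of the 17 genes was 6.44 ± 0.22 in resting Naïve, 8.43 ± 0.24 in stimulated Naïve, 8.15 ± 0.37 in resting Th2 and 7.42 ± 0.33 in stimulated Th2 WT cells (SD, n = 3).

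**Figure D3:**
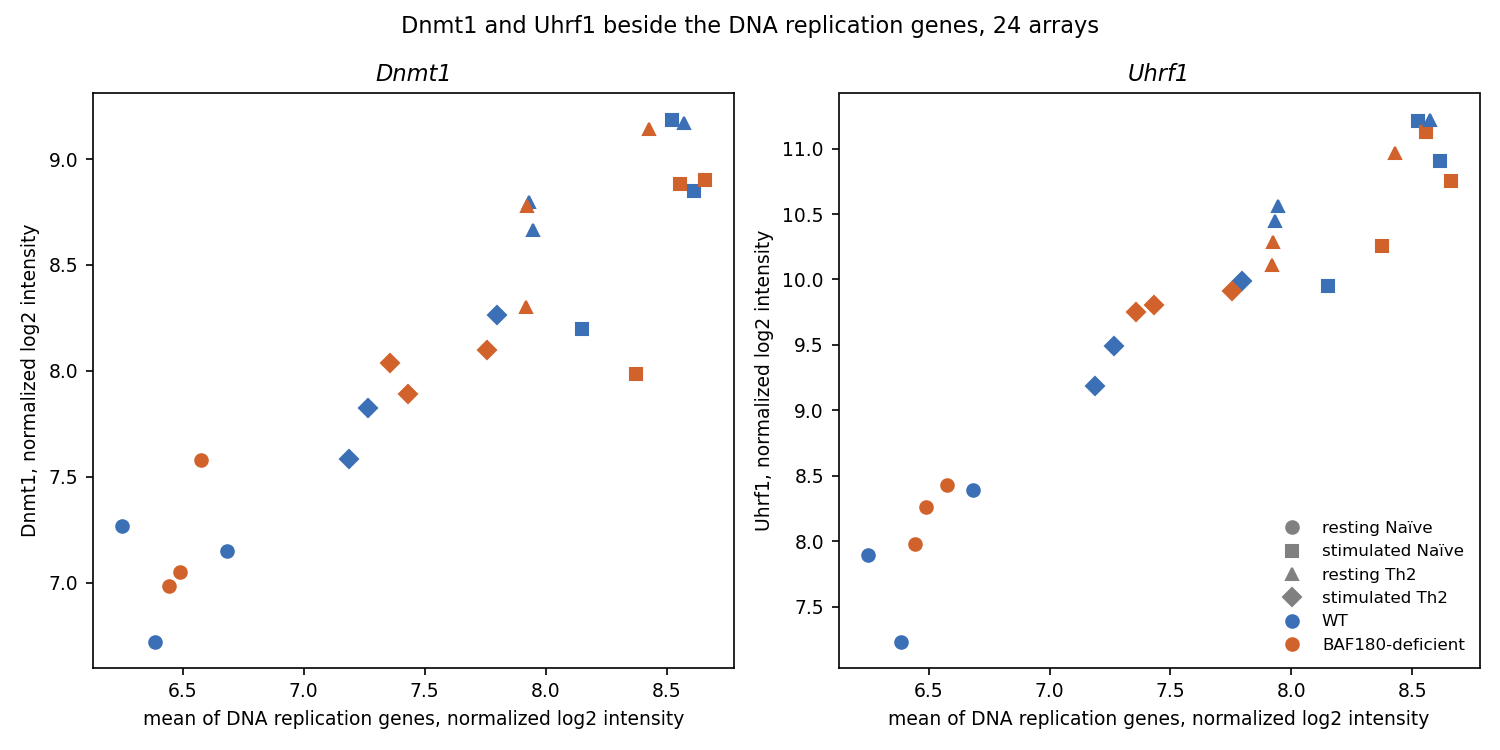
Log2 level of Dnmt1 (left) and Uhrf1 (right) against the mean log2 level of 17 DNA replication genes on the same array, for 24 arrays, with the state as the symbol and the genotype as the color. Resting Naïve arrays lay at the lower left, stimulated Th2 arrays in the middle, and stimulated Naïve and resting Th2 arrays at the upper right, without a separate course for either genotype.

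Since Dnmt1 and Uhrf1 moved together, the 250 bases before each annotated start were searched for the E2F-type motif in its 4 forms, TTTCCCGC, TTTCGCGC, TTTGCCGC and TTTGGCGC, on both strands (RefSeq starts, GRCm38.p6). E2F factors are known for driving genes of the start of S phase. One of the 3 starts of Dnmt1 and 1 of the 2 of Uhrf1 held a match, and in both it was the same form, TTTCGCGC, and the only match in the window. The 30 bases around each match are printed on the strand of the gene, with the motif in capitals. In Dnmt1 it is read from the opposite strand.
Dnmt1, chr9:20952824-20952853, minus strand: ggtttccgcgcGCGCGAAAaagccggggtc
Uhrf1, chr17:56304117-56304146, plus strand: cccgagtcgggTTTCGCGCgcccaggcgtc
The match began 219 bases before the Dnmt1 start and 185 bases before the Uhrf1 start, counted from its first base on the strand of the gene. Both matches also lie past other annotated starts of their gene, the Dnmt1 match 137 and 7046 bases past and the Uhrf1 match 791 bases past. None of the starts of Dnmt3a (3), Dnmt3b (1) and Mbd3 (1) held the motif in this window. Whether starts of Mbd1 or Mbd2 held it was not listed. Of all genes, 583 of 27025 (2.16%) had it at 1 or more starts, as had 4 of the 15 replication genes found in the promoter table. Each form of the motif contains a CpG. The windows with the match held 26 CpGs in Dnmt1 and 30 in Uhrf1, where the median over all starts was 6. Windows without it held 15 to 40 in Dnmt3a, 21 in Dnmt3b and 14 in Mbd3. The share among starts equally rich in CpG was not computed, so 2.16% is not a matched background. These are matches of letters, and no binding was measured here.

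Dnmt3b, a de novo methyltransferase, had another course over the states, and it was the member with the largest difference between genotypes. In WT cells its log2 levels were 7.43, 7.56 and 7.06 in resting Naïve, 8.33, 7.83 and 7.91 in stimulated Naïve, 7.63, 7.36 and 6.53 in resting Th2 and 7.64, 7.72 and 7.27 in stimulated Th2 cells. Stimulated Naïve cells were above every other WT state on each array, and WT resting Th2 replicate C was the lowest of all 24 arrays. Dnmt3b rose by 0.68 ± 0.25 SE on stimulation of Naïve WT cells (limma adjusted p = 0.031) and was 0.85 lower in resting Th2 than in stimulated Naïve WT cells (difference -0.85 ± 0.25, limma adjusted p = 0.0154). In BAF180-deficient cells it rose by 0.67 on stimulation of Naïve cells (limma adjusted p = 0.0334). All 3 calls were sensitive to single arrays. In WT the rise missed the threshold without resting Naïve replicate C (limma adjusted p = 0.124) or stimulated Naïve replicate A (0.135), and the lower level in resting Th2 cells did so without stimulated Naïve replicate A (0.0842) or resting Th2 replicate C (0.126), or with only the 6 arrays compared (0.0907). In BAF180-deficient cells the rise was lost without any 1 of 5 of the 6 arrays compared, the exception being stimulated Naïve replicate B, with limma adjusted p-values up to 0.0895. With all 25697 probes tested the 2 rises had limma adjusted p-values of 0.0621 and 0.0662.

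The BAF180-deficient arrays had Dnmt3b levels of 7.81, 7.87 and 7.80 in resting Naïve, 8.55, 8.38 and 8.58 in stimulated Naïve, 7.91, 8.58 and 7.64 in resting Th2 and 7.84, 8.01 and 7.56 in stimulated Th2 cells. All 3 lay above all 3 WT arrays in each state but stimulated Th2, where the groups overlapped. Such a lack of overlap with BAF180-deficient cells higher was found for 4.13% of all probes in resting Naïve, 3.25% in stimulated Naïve, 5.56% in resting Th2 and 3.66% in stimulated Th2 cells, and in at least 3 of the 4 states for 0.168%. Arrays of the same letter deviated together between the genotypes, as given under the processing. The BAF180-deficient array was above the WT array of its letter in 12 of 12 pairs, by 0.20 to 1.22, which held for 0.26% of all probes.

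The differences of Dnmt3b, BAF180-deficient minus WT, were 0.48 ± 0.25 SE in resting Naïve, 0.47 ± 0.25 in stimulated Naïve, 0.87 ± 0.25 in resting Th2 and 0.26 ± 0.25 for stimulated Th2. The difference of resting Th2 cells was 1.83-fold, with a 95% confidence interval from 0.36 to 1.39 on the log2 scale and a Z-ratio of 4.19. It was 0.55 without WT resting Th2 replicate C, and that of stimulated Th2 cells was 0.13 without WT stimulated Th2 replicate C, 0.16 without BAF180-deficient stimulated Th2 replicate B and 0.16 with a Z-score normalization. None passed the test after adjustment (limma adjusted p = 0.796, 1, 0.607 and 0.9999). The study, by its own calculation with Z-scores, lists Dnmt3b among the genes that BAF180 represses in Naïve cells, the same direction as here. Over the 4 states the mean difference was 0.52 ± 0.12 SE, or 1.44-fold, with a 95% confidence interval from 0.26 to 0.78, and it missed the threshold of 0.05 (limma adjusted p = 0.086). With the replicate letter as a block it passed (limma adjusted p = 0.0216), and so it did without WT resting Th2 replicate A (difference 0.58, limma adjusted p = 0.042). The SE and interval of the mean difference count all arrays of a genotype as separate. The same letter in different states may mark the same mouse, which the labels do not say, while the study's legend gives 3 pairs of mice for the arrays. When the 4 states were first averaged for each genotype and letter, 3 values stood against 3, and the difference of 0.52 had a limma adjusted p of 0.709, or of 0.188 with the letter as a block, an alternative chosen after seeing the data. In that test 1 of 14246 probes was called, and 3 with the block.

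No change of the Dnmt3b genotype difference between states passed the test. The largest of 4 such contrasts, stimulated minus resting Th2 cells, was -0.61 with a 95% confidence interval from -1.34 to 0.12 (limma adjusted p = 0.9999). The single probe is a limit, since the second Dnmt3b probe was not detected on any array of either genotype. Within groups the Dnmt3b levels ran opposite to those of Uhrf1, with a correlation of -0.72 between their deviations from the group means over 24 arrays. To a lesser extent they ran opposite to those of Mbd3 (-0.51) and Dnmt1 (-0.50), while the correlation with Mbd1 was 0.17. Markers of other cells also moved with the genotype. All 3 regulatory T cell markers were higher in BAF180-deficient cells in the mean over the states, with a median difference of 0.41, and all 6 measured B cell markers were, with a median of 0.21, but none was called. Cd8b1, the measured CD8 T cell marker, was lower in BAF180-deficient cells, with differences of -0.145 in resting Naïve, -0.788 in stimulated Naïve, -0.953 in resting Th2 and -0.699 for stimulated Th2, none of them called. The summed intensity of the B cell markers ranged from 22.4 to 833 over the WT and from 30.9 to 1089 over the BAF180-deficient arrays, that of the regulatory T cell markers from 159 to 929 and from 256 to 1419. In resting Th2 cells the Cd8b1 intensity was 188 to 324 in WT and 72.1 to 246 in BAF180-deficient cells. The part of all these markers in the Dnmt3b difference was not tested.

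**Figure D4:**
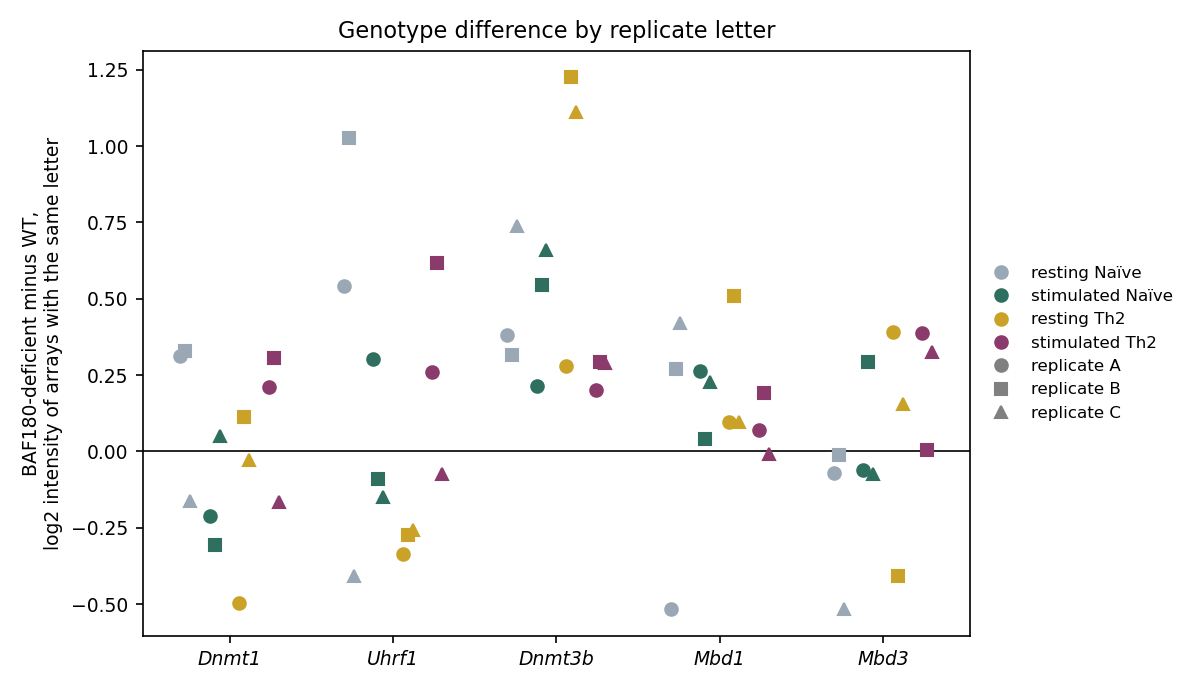
Difference in log2 intensity between the BAF180-deficient and the WT array of the same replicate letter (y axis), for the 5 detected genes (x axis), with the cell state as the color and the letter as the symbol. All 12 points of Dnmt3b lay above 0, from 0.20 to 1.22, while those of the other 4 genes lay on both sides.

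No other member passed a test between genotypes. The thresholds of the study (Z-ratio beyond 1.5, FDR below 0.3, p below 0.05 and mean signal above 0) were applied here to the quantile normalized log2 values with the p and FDR of limma, which is not the study's own calculation. By these, 0 of 5 members were called in any state, where 0.681% of all probes were in resting Naïve, 0.112% in stimulated Naïve, 0.0842% in resting Th2 and 0.0913% in stimulated Th2 cells. At an unadjusted limma p below 0.05 only Dnmt3b in resting Th2 cells passed. In the mean over the states 0 of 5 members and 0.309% of all probes were called at an adjusted p below 0.05. The mean difference of Dnmt1 was -0.00 with a 95% confidence interval from -0.30 to 0.29, and that of Uhrf1 was 0.10, from -0.25 to 0.44. These intervals, and that of the Mbd1 mean below, count all arrays of a genotype as separate. Mbd1 did not overlap between genotypes in resting Th2 cells, where BAF180-deficient cells were 0.23 higher (limma adjusted p = 0.9999), and its mean difference was 0.14, from -0.04 to 0.32. In single states the intervals were wider, the largest difference being that of Uhrf1 in resting Naïve cells (0.39, from -0.30 to 1.07). None of the members was called for a genotype difference that changed between states. Of all probes, 0.00702% were for stimulated against resting Naïve cells, 0% for stimulated against resting Th2 cells, 0.00702% for Th2 against Naïve cells at rest and 0% for the same comparison after stimulation.

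Mbd1, which binds methylated CpG and links it to histone methylation, was lowest in stimulated Th2 cells. On the WT arrays its log2 levels were 8.49, 8.04 and 8.03 in resting Naïve, 7.96, 7.51 and 7.65 in stimulated Naïve, 8.08, 7.81 and 8.07 in resting Th2 and 7.36, 7.02 and 7.34 in stimulated Th2 cells. In BAF180-deficient cells they were 7.97, 8.31 and 8.45, then 8.22, 7.56 and 7.87, then 8.18, 8.32 and 8.16, then 7.43, 7.21 and 7.33. In both genotypes the 3 stimulated Th2 arrays lay below those of all other states. Mbd1 fell by 0.74 ± 0.18 SE from resting to stimulated Th2 WT cells (limma adjusted p = 0.00282) and by 0.89 ± 0.18 in BAF180-deficient cells (limma adjusted p = 0.000639). It was 0.94 lower in stimulated Th2 than in resting Naïve WT cells (difference -0.94, limma adjusted p = 0.000138). It thus fell within 1.5 h together with Dnmt1 and Uhrf1. Unlike them it was not higher in resting Th2 than in resting Naïve cells by its brightest probe (WT difference -0.20, limma adjusted p = 0.414).

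On stimulation of Naïve cells Mbd1 fell by 0.48 in WT (limma adjusted p = 0.0318), and the difference in BAF180-deficient cells was -0.36 (limma adjusted p = 0.107). The WT call was lost without resting Naïve replicate A (limma adjusted p = 0.175), stimulated Naïve replicate B (0.132) or stimulated Naïve replicate C (0.0887), and likewise with only the 6 arrays compared (0.094) and with a Z-score normalization, where the difference was -0.24 (limma adjusted p = 0.28). The difference between stimulated Th2 and stimulated Naïve WT cells was -0.46 (limma adjusted p = 0.0696), and it passed with the letter as a block (limma adjusted p = 0.0424). The second Mbd1 probe, detected on 16 arrays and close to background with log2 levels between 4.40 and 5.24, gave differences of -0.25 in WT and -0.21 in BAF180-deficient cells for stimulated against resting Th2 cells, and neither was called. So the fall of Mbd1 rests on 1 probe. On stimulation of Naïve WT cells the second probe gave 0.09, and in resting Th2 against resting Naïve WT cells 0.22, again without a call. The probe detected on 1 array was 0.33 higher in resting Th2 than in resting Naïve WT cells (limma adjusted p = 0.0156). Its log2 means there were 4.56 and 4.23, and the difference in BAF180-deficient cells was 0.07, not called. The genes most like Mbd1 over the 24 arrays were Was (r = 0.940), a regulator of actin in blood cells, Atn1 (0.923) and C2cd5 (0.913).

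Mbd3, a NuRD subunit, was highest in stimulated Naïve cells. Its log2 levels in WT were 6.84, 7.05 and 7.43 in resting Naïve, 7.69, 7.32 and 7.57 in stimulated Naïve, 6.39, 7.04 and 7.20 in resting Th2 and 7.08, 7.26 and 6.91 in stimulated Th2 cells. In BAF180-deficient cells they were 6.77, 7.03 and 6.91, then 7.64, 7.61 and 7.50, then 6.78, 6.63 and 7.36, then 7.47, 7.27 and 7.23. The stimulated and resting Naïve arrays were apart in BAF180-deficient cells, where the rise was 0.68 ± 0.20 SE (limma adjusted p = 0.0103), and overlapped in WT, where the difference was 0.43 ± 0.20 (limma adjusted p = 0.0983). The WT difference passed without resting Naïve replicate C (0.59, limma adjusted p = 0.0335) and with a Z-score normalization (0.59, limma adjusted p = 0.0142). A difference between the genotypes in this change was not detected (0.25, 95% confidence interval from -0.35 to 0.85, limma adjusted p = 1). Resting Th2 WT cells were 0.65 below stimulated Naïve cells (difference -0.65, limma adjusted p = 0.0241), a call that was lost without stimulated Naïve replicate A (limma adjusted p = 0.0962), stimulated Naïve replicate C (0.069) or resting Th2 replicate A (0.179), or with only the 6 arrays compared (0.0934). The genes most like Mbd3 were Gps1 (r = 0.853), Uqcrc1 (0.849) and Eftud2 (0.848), and those most like Dnmt3b were Tmem126a (0.834), Lrp11 (0.830) and Pigl (0.818).

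Other genes of the pathway were taken from lists chosen by known function, and none of their measured members was called between genotypes in the mean over the states. The study, by its own calculation, names Gadd45a in Naïve and Chd4 in Th2 cells as genes that BAF180 seemed to activate. Here no gene of the DNA demethylation list, which holds Gadd45a, was called between genotypes in a single state. Genotype calls of Chd4 in single states are not given here. Of the 5 measured genes of DNA demethylation, 3 rose and 2 fell from resting to stimulated Naïve WT cells, where 23.6% of all probes rose and 20% fell. Apex1 (1.41) and Tdg (0.96), which act in base excision of modified cytosines, rose, while Gadd45a (-1.46) and Tet2 (-0.61), an enzyme that oxidizes methylcytosine, fell. After PMA and ionomycin Apex1 (1.02) and Tdg (0.96) rose in WT Th2 cells, where 13% of all probes did. The median differences of the list were 0.57 and 0.60, against 0.01 and -0.00 for all probes.

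The partners of the maintenance machinery were split. Cdca7, a cofactor of the remodeler Hells, rose by 3.42 and Pcna, the sliding clamp that Dnmt1 binds, by 1.63 on stimulation of Naïve WT cells, and Ehmt2 fell by 0.39, so that 2 of 5 measured genes rose and 1 fell (median 0.21), where 23.6% of all probes rose and 20% fell. Resting Th2 WT cells had 2 higher genes, Cdca7 (2.36) and Pcna (1.57), and 1 lower, Usp7 (-0.74), a deubiquitinase known to bind Dnmt1 and Uhrf1, where 18.4% of all probes rose and 16% fell. After PMA and ionomycin the histone methyltransferase Ehmt2 fell by 1.28 and none rose, where 14.3% of all probes fell.

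Among the 7 measured other readers of methyl-CpG, none rose in these 3 comparisons, and 1 fell on stimulation of Naïve WT cells, 1 in resting Th2 against resting Naïve WT cells and 2 after PMA and ionomycin, where 20%, 16% and 14.3% of all probes fell. Uhrf2, the paralog of Uhrf1, fell by 0.77 on stimulation of Naïve WT cells, where Uhrf1 rose, and by 0.88 after PMA and ionomycin, where Uhrf1 fell too. Mbd4, a DNA glycosylase with a methyl-CpG-binding domain, fell by 1.29 after PMA and ionomycin, as Mbd1 did. The median differences of the readers were -0.15 and -0.34.

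Of the 8 measured NuRD partners of Mbd2 and Mbd3, 3 rose and 2 fell on stimulation of Naïve WT cells, where 23.6% of all probes rose and 20% fell, with Hdac2 (1.46), Rbbp7 (1.30) and Chd4 (0.77) higher and Mta3 (-1.04) and Gatad2b (-0.63) lower. After PMA and ionomycin 2 rose, Hdac2 (0.72) and Chd4 (0.55), and 2 fell, Mta3 (-1.29) and Hdac1 (-0.76), where 13% of all probes rose and 14.3% fell. With so few genes these counts lie near the shares of all probes. The methyl donor genes, which supply the methyl group through folate and S-adenosylmethionine, had 4 of 6 measured members higher in stimulated than in resting Naïve WT cells (median 1.74), where 23.6% of all probes were. These were Mthfd2 (2.62), Shmt2 (2.47), Shmt1 (2.37) and Mat2a (1.11). Unlike Dnmt1 and Uhrf1 the same 4 also rose in WT Th2 cells after PMA and ionomycin, by 1.99, 1.25, 2.03 and 1.12, while Mat2b fell by 0.86 (median 1.18). There 13% of all probes rose and 14.3% fell.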

How the data were processed

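RNA of 24 samples was hybridized to Illumina MouseRef-8 v2 arrays. The authors deposited the average bead intensity of each probe from GenomeStudio, without normalization or background subtraction, with its detection p-value. The labels' groups were used. Intensities were background corrected (neqc, offset 16), log2 transformed and quantile normalized with limma 3.58.1 in R 4.3.3. Of 25697 probes, 14246 had a detection p no higher than 0.02 on 1 or more arrays, and these were fitted as 8 group means. The study describes Z-scores, which were an alternative. Between 8047 and 10689 probes were detected per array, and 3 arrays per group limit the precision.

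P-values were adjusted over all kept probes (Benjamini-Hochberg), with the probe of the highest mean standing for a gene. Where nothing says that replicates are separate mice in every state, p-values measure the spread between arrays. Among 24 pairs of replicate arrays the correlation was 0.949 to 0.989, and at most 0.973% of probes had equal values, so no array was counted as a copy. Deviations of WT and BAF180-deficient arrays of the same letter correlated at 0.301 (A), 0.136 (B) and 0.516 (C) over the 4 states, and the legend of the study speaks of pairs of mice, so the letters were read as pairs. The fitting was tested on simulated data, with arrays drawn as independent and 200 of 14246 probes changed. In resting Th2 cells 25% of changes of 0.5 on the log2 scale were called and 89% of changes of 1. Of the calls there, 35.1% and 31% were false. For the mean over the states 73% and 99.5% were called, with 8.75% and 4.33% of the calls false. A missing call in a single state therefore says little about a difference of 0.5. In the data 12 probes were called in resting Th2 cells, and with fewer changed probes than the simulated 200 the adjustment is stricter. The simulated recovery may thus be too high for these data, also for changes of 1. The members, the gene lists and the comparisons were chosen with earlier results of these data known, and the named genes are all members, their 3 most similar genes, Pbrm1, and up to 4 called genes per list, of which 1 similar gene and 1 marker list are not reported here. The alternatives were Z-scores, normalization within the cell state, no background correction, other detection filters, only the arrays compared, the letter as a block, the mean of the states per letter, and each array left out.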

Additional observations from a re-analysis of the deposited data

Results flagged for a closer look

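For Mbd3, the BAF180-deficient array was below the WT array of its letter in 3 of 3 pairs of resting Naïve cells (-0.52 to -0.01) and above it in 3 of 3 pairs of stimulated Th2 cells (0.00 to 0.39). The genotype difference was 0.44 ± 0.29 SE higher in stimulated Th2 than in resting Naïve cells, with a limma adjusted p of 0.9987, and no probe was called in that comparison. In both states a pair of arrays differed by close to 0.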

How the results depend on the processing

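Of 11 counts of members called, 8 kept their value within 1.5 times under every alternative run. In the mean over the states, where 0 members were called, 1 (Dnmt3b) was called with the replicate block, and 0 to 1 when each array was left out in turn. Between stimulated and resting Th2 cells, the 1 call in BAF180-deficient cells became 2 with the replicate block and 2 with only the 6 arrays compared, and was 1 to 2 with an array left out, and the 3 calls in WT became 1 to 3. The replicate block also turned the call of Mbd1 between stimulated Th2 and stimulated Naïve WT cells and moved the number of probes called in the mean over the states from 44 to 88. It changed no other call of a member. Calls of single list genes with the block are not given here.

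Of 1680 values under alternatives for 55 single differences, 1594 kept direction and call, 38 lost a call, 13 gained one and 35 changed direction, none of them of a called difference. With the Z-score normalization the genotype difference was -0.012 for Mbd1 in stimulated Th2 and -0.060 for Uhrf1 in stimulated Naïve cells. With 1 array left out, genotype differences of Dnmt1 ranged from -0.029 to 0.27 in resting Naïve, -0.43 to 0.15 in stimulated Naïve, -0.34 to 0.082 in resting Th2, -0.037 to 0.30 in stimulated Th2 cells and -0.073 to 0.071 in the mean. Those of Mbd1 ranged from -0.043 to 0.21 in resting Naïve and -0.025 to 0.15 in stimulated Th2 cells, those of Mbd3 from -0.051 to 0.14 in stimulated Naïve, -0.20 to 0.21 in resting Th2 cells and -0.026 to 0.075 in the mean, and those of Uhrf1 from -0.35 to 0.28 in stimulated Naïve cells. Resting Th2 minus stimulated Naïve WT cells gave -0.14 to 0.35 for Dnmt1 and -0.31 to 0.32 for Uhrf1. The cause of these changes was not tested. The mean Dnmt3b difference stayed between 0.44 and 0.58 with adjusted p-values of 0.0216 to 0.709 over its 32 alternatives. With so few probes called between genotypes, a count over the few members could hardly move, so its steadiness says little. Over all probes, genotype calls did move. In resting Naïve cells they were 97, and 17 with Z-scores and 7 with normalization within the cell state. In stimulated Naïve cells they were 16, and 3 with Z-scores, 5 without background correction, 9 without the detection filter and 4 with detection on at least 3 arrays. In resting Th2 cells they were 12, and 62 with normalization within the cell state and 5 without the filter, and in stimulated Th2 cells 13, and 7 with Z-scores. In the mean they were 44, and 29 without the filter. Calls for a genotype difference that changed between states were 0 or 1 under each of these settings. Dim probes limit what can be said of Dnmt3a and Mbd2.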
